A study of Mus musculus with 8 samples.

Results

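The postsynaptic density scaffold and adhesion genes are 32 genes named by symbol, each found as 1 row of a gene count table of 54532 genes. All 32 passed the filter on low counts and were among the 16745 genes tested. Counts came from RNA of the medial prefrontal cortex (mPFC) of adult male C57BL/6 mice, collected 1 h after a test of conditioned place preference (CPP) for methamphetamine, in which an animal's preference for a drug-paired compartment is measured. The retrieval group and the non-retrieval group had 4 libraries each, and every library was made from a pool of 2 to 3 mice. The labels give no other treatment, genotype or age in weeks, and do not say what the non-retrieval mice did in place of retrieval, so the drug history of each group is known only from the title of the series. The question was how expression in the mPFC differs once mice have retrieved the memory of the drug-paired place.

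The postsynaptic density is the protein mesh under the membrane of excitatory synapses on dendritic spines. PSD-MAGUK proteins (the Dlg genes) bind receptors and adhesion molecules through PDZ domains, DLGAP proteins link them to SHANK proteins, and SHANK proteins connect the mesh to Homer and to actin. Adhesion molecules such as neuroligins and LRRTM proteins bind presynaptic neurexins, and the TARP subunits encoded by Cacng genes hold AMPA receptors at the scaffold. In cortical pyramidal neurons this mesh is remodelled when synapses change strength.

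Libraries held 25013503 to 29547978 counts, and the member with the fewest counts had 1164 in its lowest library. Fos and Arc, markers of recent neuronal activity, did not overlap between groups, with Fos at 8.66 to 19.1 CPM (counts relative to the scaled library total) in non-retrieval and 55.1 to 65.4 CPM in retrieval. The tissue held its defining neuronal markers: the summed level of 6 excitatory neuron markers was 3790 to 4331 CPM in non-retrieval and 3591 to 3963 CPM in retrieval. Summed levels of 10 myelin markers did not overlap between groups, at 3398 to 4008 CPM in non-retrieval and 4121 to 5980 CPM in retrieval. Those of 6 pan-neuronal markers did not overlap either and lay lower in retrieval, at 5399 to 5912 CPM against 5947 to 6356 CPM. Retrieval replicate 2 had the highest sum of 8 striatal projection neuron markers, 383.5 CPM against 221.8 to 279.8 CPM elsewhere. Sums of markers of inhibitory neurons, astrocytes, microglia and endothelial cells overlapped between groups. In bulk tissue, fewer cells of a type and less RNA per cell cannot be told apart.

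Among themselves the members differed in level per length by a factor of 58.2 in non-retrieval, and the order was led by binding proteins of actin and small GTPases. On the TPM scale (counts per kilobase of the deposited gene length, scaled to the same sum in each library), Ppp1r9b, which encodes the actin and phosphatase binding protein spinophilin, was highest at 1070 ± 77.3 (SD, n = 4). Agap2, an Arf GTPase-activating protein that enhances PI3 kinase, followed at 944 ± 65.2 TPM, and the linker gene Dlgap3 at 473 ± 38.3 TPM. Shank1 (260.1 ± 43.8 TPM) and Dlg4 (253.6 ± 14.1 TPM), which encodes PSD-95, came next and did not differ from each other beyond their spread. The lowest levels were those of the neuroligin genes Nlgn3 (19.8 ± 2.08 TPM) and Nlgn1 (18.4 ± 2.29 TPM), which did not differ beyond their spread either. The median member stood at 115 TPM, against 13.8 TPM for all tested genes, and 20 of 32 members lay above 100 TPM. The deposited lengths are those of whole gene models, so a gene that is mostly expressed as a short transcript is understated on this scale.

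**Figure D1:**
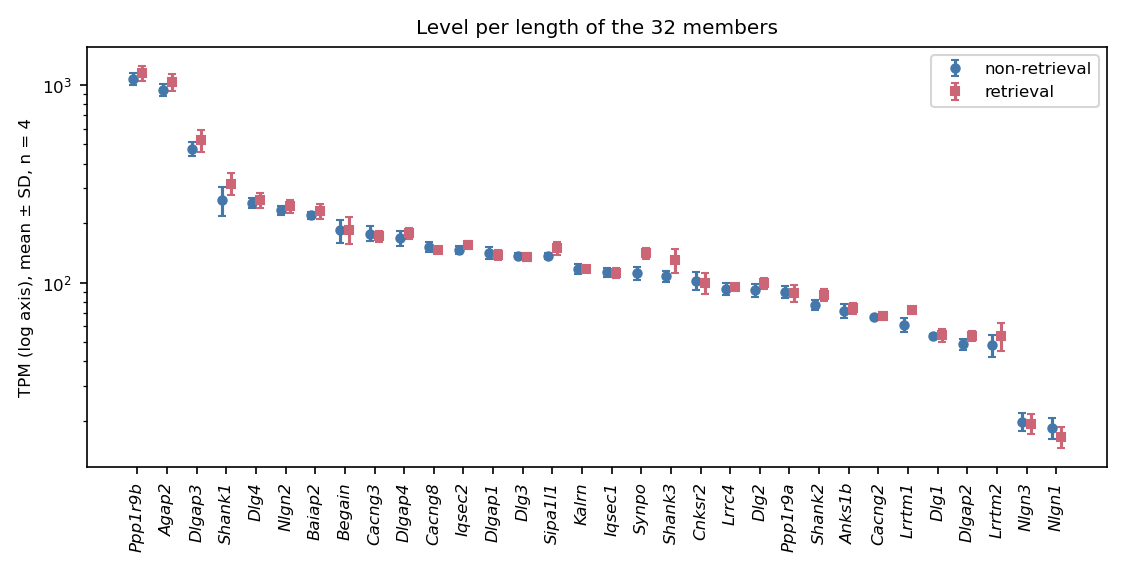
TPM of the 32 members on a log axis, mean ± SD over 4 libraries per group (circles non-retrieval, squares retrieval), ordered by the non-retrieval mean. Ppp1r9b and Agap2 stand near 1000 TPM and Nlgn1 and Nlgn3 near 20 TPM, and the group means of a gene lie close to each other compared with the range among genes.

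Between retrieval and non-retrieval, 1 of the 32 members passed the test, Synpo, which was higher in retrieval, and 31 did not pass (edgeR quasi-likelihood test, two-sided, adjusted p under 0.05 over all tested genes). Across all tested genes 4.57% were called, 3.67% higher and 0.902% lower, so 1 member in 32 is close to the background. The median log2 fold change was 0.05 over the members and -0.01 over all tested genes, and 22 members had a positive value against 47.8% of tested genes. At an unadjusted p under 0.05, 5 members were higher and 0 lower: Synpo, Lrrtm1, Shank3, Shank1 and Shank2. That unadjusted threshold was passed by 11.2% of tested genes in the higher direction and by 7.27% in the lower one. The groups separated fully, with retrieval higher, for 2 members, Synpo and Lrrtm1, against 6.59% of tested genes, and with retrieval lower for 0 members, against 4.53%. DESeq2 called Synpo and Lrrtm1, and limma-voom called these and the 3 Shank genes, all higher. Of all tested genes DESeq2 called 6.40% and limma-voom 9.67%. Each of the other 2 tools called 0 members among the MAGUK, DLGAP, small GTPase and TARP genes. For 26 of the 32 members the 95% interval of the change lay within 25% either way, so that larger changes lay outside the intervals for most of the set. Replicate spread was small, with a median coefficient of variation of 6.18% in non-retrieval and 7.90% in retrieval.

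**Figure D2:**
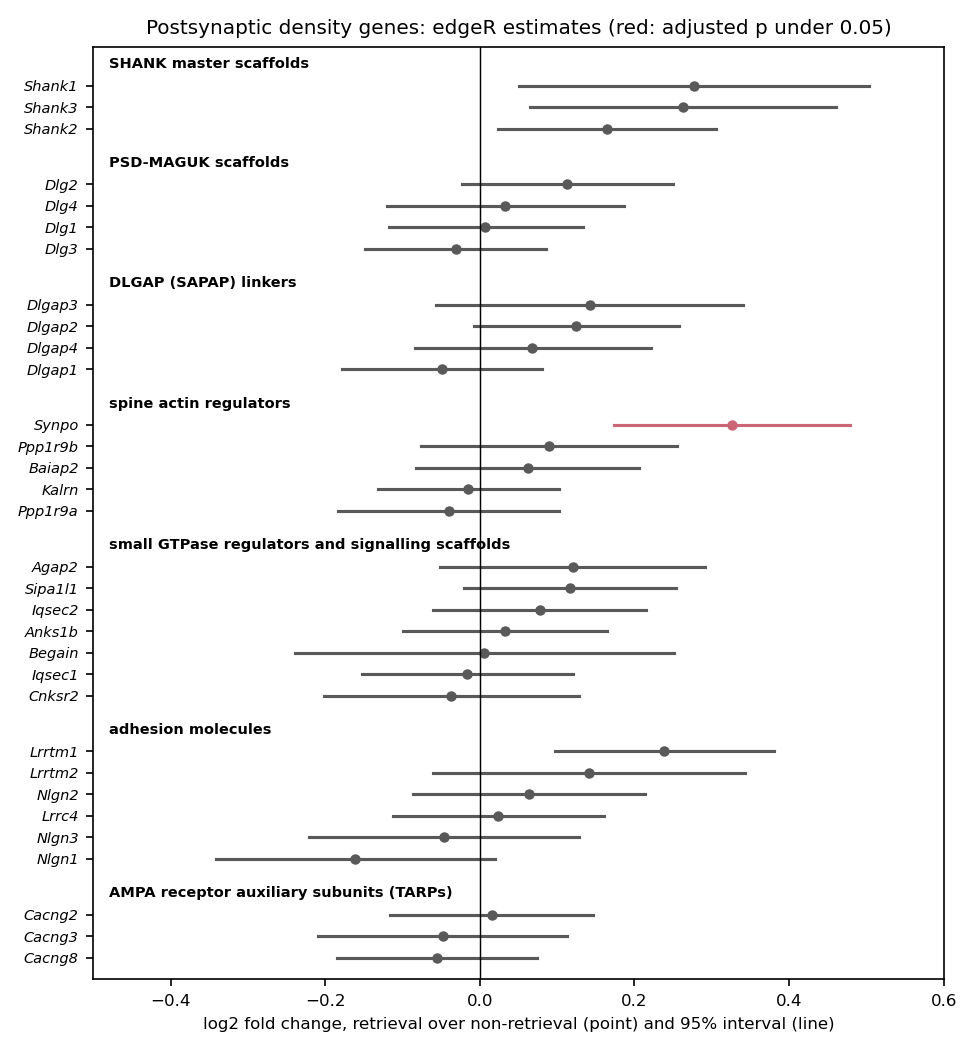
Log2 fold change of each member (point) with its 95% interval (line), retrieval over non-retrieval, grouped by role. Synpo at 0.33 is the only member past the adjusted threshold, and the intervals of Lrrtm1 and the 3 Shank genes also lie above 0.

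Among the 5 regulators of spine actin, Synpo rose and the other 4 did not pass. Synpo encodes synaptopodin, the actin-binding protein of the spine apparatus, a stack of endoplasmic reticulum in mature spines. Synpo (ENSMUSG00000043079, GRCm38, chromosome 18 from 60593973 to 60660142, minus strand) had 273, 305, 281 and 326 CPM in non-retrieval replicates 1 to 4 and 330, 393, 372 and 391 CPM in retrieval replicates 1 to 4. The lowest retrieval library, replicate 1, was just above the highest non-retrieval library, replicate 4, so the groups did not overlap. The rise was 25.4% (95% interval 12.8% to 39.4%; log2 fold change 0.33, SE 0.07; edgeR adjusted p = 0.0162). The call ended without non-retrieval replicate 3 (log2 fold change 0.30, edgeR adjusted p = 0.0728), without retrieval replicate 4 (0.30, edgeR adjusted p = 0.0609), and with the myelin marker level as a covariate (0.21, edgeR adjusted p = 0.371). Of all tested genes 1.95%, 2.33% and 1.01% were called in these settings, in that order, against 4.57% in the main fit. Myelin marker sums did not overlap between the groups, so that covariate can take up part of any difference between the groups. With an offset for transcript length and GC content Synpo kept its call at 0.23 (edgeR adjusted p = 0.00578).

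Ppp1r9b stood at 1329, 1600, 1553 and 1576 CPM in non-retrieval and 1369, 1652, 1727 and 1698 CPM in retrieval. In each group replicate 1 was the lowest, and the groups overlapped (log2 fold change 0.09, SE 0.08; edgeR adjusted p = 0.582). Its relative Ppp1r9a, which encodes neurabin, differed by -0.04 with an interval of -0.18 to 0.10 on the log2 scale. Kalrn, which encodes kalirin, a protein that enlarges spines, was the steadiest of these genes, at 743 to 820 CPM in non-retrieval and 760 to 797 CPM in retrieval (log2 fold change -0.01, interval -0.13 to 0.10). Baiap2, which encodes the membrane-bending adaptor IRSp53, had a log2 fold change of 0.06 with an interval of -0.08 to 0.21.

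The 3 SHANK genes, whose products form the deepest layer of the density, had positive estimates but did not pass in the main edgeR fit. Shank3 (ENSMUSG00000022623, chromosome 15 from 89499623 to 89560261, plus strand) had 249, 297, 286 and 270 CPM in non-retrieval and 256, 345, 366 and 356 CPM in retrieval. Retrieval replicates 2 to 4 lay above every non-retrieval library, and retrieval replicate 1 lay among them. The log2 fold change was 0.26 (SE 0.09; edgeR adjusted p = 0.134), a difference whose interval ran from 4.63% to 37.7%. Without retrieval replicate 1 it was 0.38 (edgeR adjusted p = 0.00128). Leaving out any other 1 library gave 0.21 to 0.30 (edgeR adjusted p between 0.132 and 0.327).

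Shank1 (chromosome 7 from 44310253 to 44360572, plus strand) had 680, 949, 703 and 710 CPM in non-retrieval and 732, 1014, 991 and 951 CPM in retrieval. Here 1 library in each group stood apart, the high non-retrieval replicate 2 and the low retrieval replicate 1, so the groups overlapped (log2 fold change 0.28, SE 0.11; edgeR adjusted p = 0.168). Without non-retrieval replicate 2 the value was 0.40 (edgeR adjusted p = 0.0279), and without retrieval replicate 1 it was 0.38 (edgeR adjusted p = 0.0131). Leaving out any other 1 library gave Shank1 0.23 to 0.26 (edgeR adjusted p between 0.308 and 0.374). Shank2 had 234, 245, 226 and 220 CPM in non-retrieval and 230, 269, 278 and 259 CPM in retrieval (log2 fold change 0.16, SE 0.07; edgeR adjusted p = 0.193), with the same library lowest in retrieval. Without retrieval replicate 1 Shank2 passed at 0.23 (edgeR adjusted p = 0.0245). Leaving out any other 1 library gave Shank2 0.13 to 0.19 (edgeR adjusted p between 0.170 and 0.420). With the length and GC offset the values were 0.17 for Shank1, 0.06 for Shank2 and 0.17 for Shank3 (edgeR adjusted p = 0.146, 0.459 and 0.0804). With the myelin covariate they were 0.04, 0.11 and 0.11 (edgeR adjusted p = 0.925, 0.653 and 0.734). With the replicate number as a block they were 0.28, 0.16 and 0.25 (edgeR adjusted p = 0.00439, 0.0504 and 0.00445). Shank1 and Shank3 thus passed in that fit, where 10.7% of all tested genes were called.

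Bases upstream of annotated starts are shown for Shank3 and Lrrtm1, the 2 members nearest to the adjusted threshold after Synpo, so that the motifs of activity-regulated factors can be set beside their values. Each run is the 250 bases before a start in RefSeq's annotation of GRCm38.p6, read 5′ to 3′ along the gene's strand, with motif matches in capitals. Shank3 lies at chr15:89499358-89499607 and Lrrtm1 at chr6:77242227-77242476, both on the plus strand.
Shank3: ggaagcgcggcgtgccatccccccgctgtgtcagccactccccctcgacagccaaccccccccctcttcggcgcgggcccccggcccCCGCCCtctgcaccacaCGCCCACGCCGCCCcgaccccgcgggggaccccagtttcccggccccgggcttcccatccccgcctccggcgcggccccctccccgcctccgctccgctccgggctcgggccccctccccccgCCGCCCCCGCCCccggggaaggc
Lrrtm1: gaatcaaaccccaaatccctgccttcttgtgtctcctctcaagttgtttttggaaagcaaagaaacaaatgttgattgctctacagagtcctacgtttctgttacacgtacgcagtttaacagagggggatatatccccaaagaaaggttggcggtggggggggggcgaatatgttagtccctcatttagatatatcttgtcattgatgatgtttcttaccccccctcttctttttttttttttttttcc
The motifs searched on both strands were the cAMP response element TGACGTCA, its core TGACG (which lies inside it), the AP-1 site TGANTCA, the EGR site GCGNGGGCG and the GC box GGGCGG, which can overlap the EGR site. The Shank3 run was 82.4% G and C and held 6 matches, EGR sites and GC boxes that partly overlap, and the Lrrtm1 run was 42.0% G and C and held 0. Over all 32851 RefSeq windows of that length, 4.70% held the EGR site and 32.7% the GC box. RefSeq windows were found for 26 members (49 windows): 6 windows (12.2%) held the EGR site, 24 (49%) the GC box, 4 (8.16%) the TGACG core against 17.8% of all windows, and 0 the full response element or the AP-1 site, which 1.55% and 6.75% of all windows held. The members' windows had a median GC content of 60.8% against 52.4% over all windows, and a match is a description of the letters only.

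None of the 4 PSD-MAGUK genes and none of the 4 DLGAP linker genes passed in edgeR, also at an unadjusted p under 0.05. Dlg4, the most abundant MAGUK, had 857, 989, 926 and 968 CPM in non-retrieval and 822, 1023, 994 and 987 CPM in retrieval. The lowest library of each group was again replicate 1, and the estimate was near 0 (log2 fold change 0.03, SE 0.07, interval -0.12 to 0.19; edgeR adjusted p = 0.852). Dlg2, which encodes PSD-93, had 442, 428, 392 and 394 CPM in non-retrieval and 450, 409, 479 and 453 CPM in retrieval (log2 fold change 0.11, SE 0.06; edgeR adjusted p = 0.374), with overlapping groups. Dlg3, which encodes SAP102, had 223, 216, 232 and 220 CPM in non-retrieval and 224, 212, 221 and 216 CPM in retrieval, one of the tightest members (log2 fold change -0.03, SE 0.06; edgeR adjusted p = 0.816). Dlg1, which encodes SAP97, had a log2 fold change of 0.01 with an interval of -0.12 to 0.13.

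Of the linkers, Dlgap3 had 519, 642, 602 and 616 CPM in non-retrieval and 513, 697, 691 and 726 CPM in retrieval. Retrieval replicates 2 to 4 lay above every non-retrieval library, and retrieval replicate 1 lay below all of them (log2 fold change 0.14, SE 0.09; edgeR adjusted p = 0.452). Without that library Dlgap3 passed at 0.25 (edgeR adjusted p = 0.0264), and with the myelin covariate it was -0.06 (edgeR adjusted p = 0.860). Leaving out any other 1 library gave Dlgap3 0.08 to 0.18 (edgeR adjusted p between 0.383 and 0.722). Dlgap2 had 80.9, 91.3, 80.5 and 81.5 CPM in non-retrieval and 93.0, 89.8, 94.6 and 87.2 CPM in retrieval, where only non-retrieval replicate 2 reached the retrieval range (log2 fold change 0.13, SE 0.06; edgeR adjusted p = 0.302). Dlgap4 and Dlgap1 differed by 0.07 and -0.05 on the log2 scale, with intervals that included 0.

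None of the 7 regulators of small GTPases and signalling scaffolds passed in edgeR, also at an unadjusted p under 0.05. Agap2 had 1401, 1687, 1580 and 1575 CPM in non-retrieval and 1401, 1833, 1750 and 1799 CPM in retrieval. Its 2 lowest libraries were the ones numbered 1, at the same level, and the other 3 retrieval libraries lay above the other 3 non-retrieval ones. The log2 fold change was 0.12 (SE 0.08; edgeR adjusted p = 0.462), and 0.21 without retrieval replicate 1 (edgeR adjusted p = 0.0443). With the myelin covariate it was -0.07 (edgeR adjusted p = 0.807). Leaving out any library other than retrieval replicate 1 gave Agap2 0.07 to 0.16 (edgeR adjusted p between 0.364 and 0.697). Sipa1l1, a Rap GTPase-activating protein also called SPAR, had 467, 507, 490 and 480 CPM in non-retrieval and 485, 520, 589 and 515 CPM in retrieval, with overlapping groups (log2 fold change 0.12, SE 0.06; edgeR adjusted p = 0.357). Begain, which encodes a binding partner of PSD-95, had the widest relative spread in retrieval (coefficient of variation 17.2%), and ran from 168 CPM in retrieval replicate 1 to 259 CPM in non-retrieval replicate 3 over the 8 libraries. Its interval of -0.24 to 0.25 was the widest of the set. The Arf6 exchange factors Iqsec1 and Iqsec2, the Ras pathway scaffold Cnksr2 and the ankyrin repeat gene Anks1b had log2 fold changes between -0.04 and 0.08.

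Among the 6 adhesion genes, none passed in edgeR at the adjusted threshold, and Lrrtm1 came closest. Lrrtm1 encodes a leucine-rich repeat protein that binds neurexins at excitatory synapses. Lrrtm1 (ENSMUSG00000060780, chromosome 6 from 77242689 to 77257791, plus strand) had 51.7, 52.0, 46.8 and 56.5 CPM in non-retrieval and 59.3, 62.6, 60.0 and 62.4 CPM in retrieval. The groups did not overlap, and the retrieval libraries were close together. The difference was 18.0% (interval 6.94% to 30.1%; log2 fold change 0.24, SE 0.07; edgeR adjusted p = 0.0527). DESeq2 gave an adjusted p of 0.0186, limma-voom one of 0.0140, and the length and GC offset one of 0.00984 (edgeR, log2 fold change 0.24), while the myelin covariate gave 0.376 (edgeR). Without retrieval replicate 1, Lrrtm1 passed in edgeR at 0.26 (adjusted p = 0.0273). Leaving out any other 1 library gave Lrrtm1 0.19 to 0.28 (edgeR adjusted p between 0.0503 and 0.181). Lrrtm1 also passed with the replicate number as a block (0.24, edgeR adjusted p = 0.00617), where 10.7% of all tested genes were called.

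Nlgn1, the neuroligin of excitatory synapses, had the lowest estimate of the 32 members. It had 76.5, 71.5, 58.7 and 67.8 CPM in non-retrieval and 70.6, 58.1, 58.6 and 58.1 CPM in retrieval, so that retrieval replicate 1 lay within the non-retrieval range and the other 3 below it (log2 fold change -0.16, SE 0.09; edgeR adjusted p = 0.332). With the length and GC offset the value was -0.25 (edgeR adjusted p = 0.0171). Nlgn2, the neuroligin of inhibitory synapses, and Nlgn3, found at both kinds, differed by 0.06 and -0.05 on the log2 scale with intervals that included 0. Lrrtm2 had 65.7 to 86.6 CPM in non-retrieval and 74.5 to 100.2 CPM in retrieval, with replicate 1 highest in each group (log2 fold change 0.14, edgeR adjusted p = 0.460). Its exons overlap those of Ctnna1 on the other strand. The counts of Ctnna1 over its whole gene, not only the shared bases, came to 76.5% of those of Lrrtm2. The strand setting is not stated, so how reads from the shared bases were counted is not known. Lrrc4, which encodes the netrin-G2 ligand NGL-2, had a log2 fold change of 0.02.

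**Figure D3:**
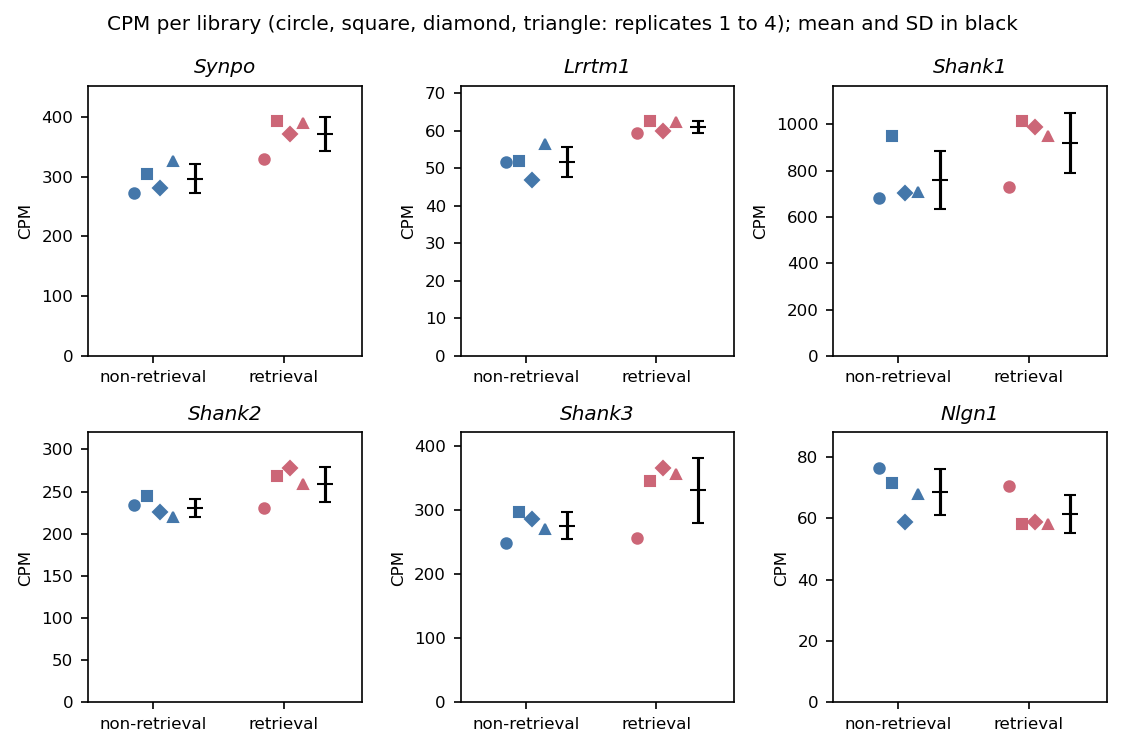
CPM of 6 members in each of the 8 libraries (marker shape gives the replicate number), with mean and SD per group in black. Synpo and Lrrtm1 do not overlap between groups, while retrieval replicate 1 (circle) lies at the non-retrieval level for Shank1, Shank2 and Shank3 and above the other retrieval libraries for Nlgn1.

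The 3 TARP genes did not pass in edgeR, also at an unadjusted p under 0.05. Cacng8 had 95.2, 103.7, 93.0 and 102.2 CPM in non-retrieval and 91.0, 97.2, 93.1 and 97.9 CPM in retrieval (log2 fold change -0.06, SE 0.06; edgeR adjusted p = 0.678). Cacng3 had 127, 133, 132 and 155 CPM in non-retrieval and 116, 136, 136 and 140.5 CPM in retrieval (log2 fold change -0.05, SE 0.08; edgeR adjusted p = 0.787). The groups of both genes overlapped. Cacng2, which encodes stargazin, had a log2 fold change of 0.02 with an interval of -0.12 to 0.15, so that its level differed by at most 10.7% upward or 7.72% downward at 95% confidence.

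The libraries numbered 1 stood apart for these genes in both groups, in a way that followed base composition. Retrieval replicate 1 was the lowest retrieval library for 20 of 32 members, and non-retrieval replicate 1 was the lowest of its group for 16. Of 14 members whose longest transcript was at least 55% G and C, 12 were below the other 3 libraries of the group in both libraries numbered 1, and of 11 members under 50%, 8 were above in both. Across the 32 members, the deviation of retrieval replicate 1 from the other 3 libraries had a Pearson r of -0.82 with GC content, and that of non-retrieval replicate 1 one of -0.84. These correlations are descriptions across genes that share the same libraries. Begain (63.6% G and C) was 0.41 lower on the log2 scale in non-retrieval replicate 1 and 0.55 lower in retrieval replicate 1 than the mean of the other 3. Nlgn1 (38.9%) was 0.22 and 0.28 higher. Exceptions were Cacng8, the most GC-rich member, which deviated by -0.07 and -0.08, and Dlg4 (46.8%), which deviated by -0.16 and -0.28.

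**Figure D4:**
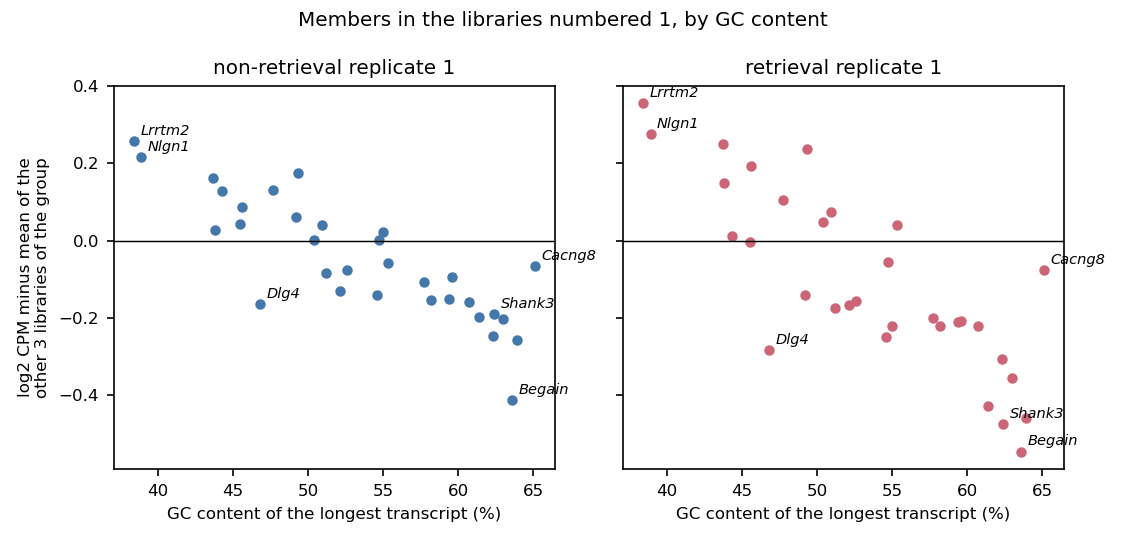
Deviation of each of the 32 members in the library numbered 1 from the mean log2 CPM of the other 3 libraries of its group, against the GC content of its longest transcript (left non-retrieval, right retrieval). In both panels AT-rich members such as Lrrtm2 and Nlgn1 lie above 0 and GC-rich members such as Begain lie below it.

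Over all tested genes, deviations of log2 CPM from the gene's mean over the 8 libraries were fitted on GC content and gene length together. The GC slope was -0.131 per 10 percentage points in non-retrieval replicate 1 and -0.140 in retrieval replicate 1. It was 0.132 in retrieval replicate 2 and -0.002 to 0.069 in the remaining libraries. Such slopes are relative to the mean of all libraries, so negative slopes in some raise the others. Retrieval replicate 2 is among the libraries against which retrieval replicate 1 was compared above. In the same fits, the slope per doubling of gene length ran from -0.026 to -0.003 in non-retrieval and from 0.007 to 0.022 in retrieval. Those length slopes did not overlap between groups. The parts that base composition and length had in the differences between the groups were not tested. With both libraries numbered 1 left out, a setting chosen after seeing the data, 6 members were called, all higher: Synpo (log2 fold change 0.35), Shank1 (0.33), Shank3 (0.33), Lrrtm1 (0.26), Shank2 (0.23) and Dlgap3 (0.19), with edgeR adjusted p between 0.00271 and 0.0470, and 5.90% of all tested genes were called. Without retrieval replicate 1 alone, 7 members were called higher, those 6 and Agap2, and 8.02% of all tested genes were called. That setting keeps non-retrieval replicate 1, whose GC slope was -0.131. Without non-retrieval replicate 1 alone, 1 member was called, Synpo, and 3.21% of all tested genes were called. With the length and GC offset, 2 members were called higher, Synpo and Lrrtm1, and 4 lower: Nlgn1 (-0.25), Dlgap1 (-0.20), Kalrn (-0.18) and Ppp1r9a (-0.15), with edgeR adjusted p between 0.0164 and 0.0437 for the 4, and 8.19% of all tested genes were called. Those 4 were not called in any setting without that offset. Their gene models ran from 13422 bases (Nlgn1) to 24050 bases (Kalrn), against a median of 8820 bases over the members. The offset adjusts for length and GC content together, so their parts cannot be told apart in these values. With the myelin level as a covariate 0 members were called by edgeR, and 1.01% of all tested genes were. The summed myelin levels did not overlap between the groups, so this fit cannot tell the covariate and the group well apart. A lost call or a changed sign with that covariate therefore decides nothing about either. The part of myelin in the members' values was not tested further.

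**Figure D5:**
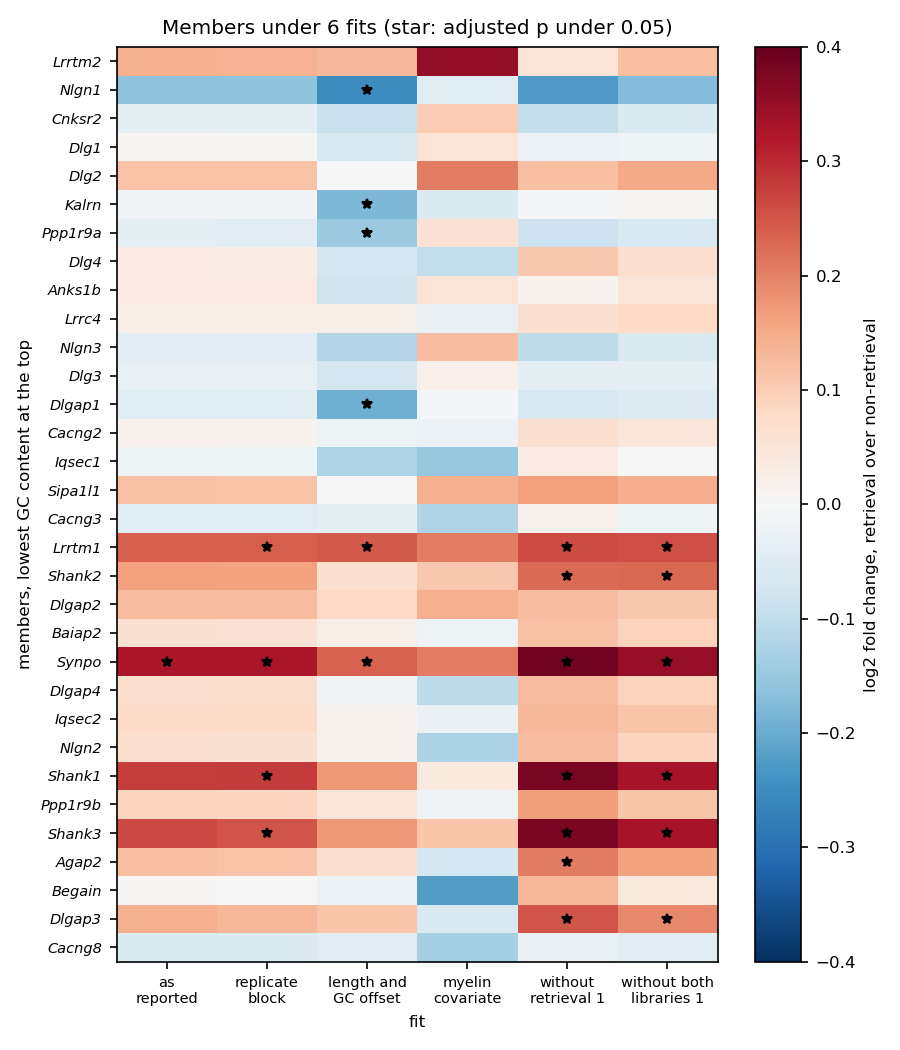
Log2 fold change of each member (rows, lowest GC content at the top) under 6 fits (columns), with a star at an adjusted p under 0.05. Synpo is starred in every column but the myelin covariate, Shank1 and Shank3 are strongest without retrieval replicate 1, and Nlgn1, Kalrn, Ppp1r9a and Dlgap1 are starred only with the length and GC offset.

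The make-up of each paralog family by length-scaled counts was nearly the same in both groups. Shank1 gave 58.2 ± 2.67% of the SHANK family's counts per kilobase in non-retrieval and 59.3 ± 0.94% in retrieval (SD, n = 4). Dlg4 gave 47.3 ± 1.98% and 47.4 ± 3.14% of the MAGUK family, Dlgap3 56.9 ± 1.87% and 58.5 ± 3.38% of the linkers, and Nlgn2 85.8 ± 1.56% and 87.1 ± 2.10% of the 3 neuroligins. Cacng3 (44.8 ± 1.77% and 44.5 ± 1.23%) and Cacng8 (38.3 ± 1.36% and 37.9 ± 1.34%) made up most of the 3 TARP genes. The largest shift beside its spread was that of Iqsec2, at 56.5 ± 0.41% of the Iqsec1 and Iqsec2 total in non-retrieval and 58.0 ± 1.04% in retrieval. None of the 23 shares separated the groups without overlap, and no test was made of them.

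The other genes of the density and its partners, 141 genes in 5 lists, included 5 that rose and 0 that fell in edgeR, with 18 higher and 9 lower at an unadjusted p under 0.05 and a median log2 fold change of 0.04. Of all tested genes, 3.67% rose and 0.902% fell, and 11.2% were higher and 7.27% lower at the unadjusted threshold, so these counts are close to the background. Both DESeq2 and limma-voom called 1 lower, the scaffold gene Lin7b, named after its values were seen. Of 34 other scaffold and signalling genes, 4 rose and 30 did not pass. Homer1, whose product links SHANK proteins to metabotropic glutamate receptors, stood at 154.8 to 169.5 CPM in non-retrieval and 247.0 to 334.3 CPM in retrieval (log2 fold change 0.88, SE 0.08; edgeR adjusted p = 3.54e-06), a rise larger than that of any member. Counts per gene do not tell which Homer1 transcript rose, so the rise cannot be read as more of the linking protein. The kinase gene Tnik (0.30), the Rap GTPase-activating gene Sipa1l3 (0.30) and Trio (0.25), the closest relative of Kalrn, rose with edgeR adjusted p of 0.0197, 0.0316 and 0.0337. Trio and Sipa1l3 lost their calls with the length and GC offset (0.06 and 0.15; edgeR adjusted p = 0.386 and 0.0898), with the myelin covariate (0.19 and 0.22; edgeR adjusted p = 0.364 and 0.382), with upper-quartile scaling factors (0.22 and 0.28; edgeR adjusted p = 0.0643 and 0.0558) and on leaving out any 1 library other than non-retrieval replicate 2 and retrieval replicate 1 (edgeR adjusted p between 0.0676 and 0.129). The call of Tnik ended when non-retrieval replicate 3 or 4 or retrieval replicate 3 was left out (edgeR adjusted p between 0.0664 and 0.0825). In those settings 1.94% to 2.47% of all tested genes were called, against 4.57% in the main fit. With the myelin covariate Tnik was 0.39 (edgeR adjusted p = 0.0522).

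Of 32 other postsynaptic adhesion genes, Elfn2, a leucine-rich repeat protein, rose and 31 did not pass. Elfn2 had 183.6 to 195.5 CPM in non-retrieval and 227.1 to 262.3 CPM in retrieval (log2 fold change 0.38, SE 0.06; edgeR adjusted p = 0.00134), with retrieval replicate 1 the lowest of its group but above every non-retrieval library. Elfn2 lost its call with the myelin covariate (0.31; edgeR adjusted p = 0.102). The next 3 by p were Lrrc4c (-0.22), Slitrk5 (-0.18) and Slitrk1 (-0.16), which did not pass (edgeR adjusted p between 0.133 and 0.198). None of 18 presynaptic adhesion partners passed in edgeR or DESeq2 (limma-voom called Flrt1 and Ptprf), with 2 higher and 1 lower at an unadjusted p under 0.05. Flrt1 (0.22), Ptprf (0.18), Flrt3 (-0.22) and Nrxn2, a neurexin gene (0.11), were first by p, with edgeR adjusted p between 0.106 and 0.475. None of 22 glutamate receptor and other auxiliary subunit genes passed in edgeR, DESeq2 or limma-voom, with 2 higher and 1 lower at that unadjusted threshold, led by Shisa6 (0.33), Grin2b (0.21), Cnih3 (-0.12) and Shisa7 (0.15). None of 35 other spine actin genes passed in edgeR or DESeq2 (limma-voom called Myo6 and Tiam1), with 4 higher and 1 lower at that threshold, led by Srgap2 (0.19), Myo6 (0.18), Tiam1 (0.20) and Pak1 (-0.13).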

How the data were processed

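The deposited table holds raw read counts per gene for 8 libraries with the length of each gene model (other columns were annotation). Per the submitters' processing notes, the authors used HISAT2 2.0.5, featureCounts 1.5.0-p3 and GRCm38. The annotation release and strand setting are not stated there. Columns were matched to samples by title. The deposited counts were filtered with filterByExpr of edgeR 4.0.16 (R 4.3.3), scaled with TMM factors and compared by the quasi-likelihood F test of edgeR (two-sided, Benjamini-Hochberg adjustment over 16745 genes, called at an adjusted p under 0.05). SE is the log2 fold change divided by the root of F, and 95% intervals use the test's degrees of freedom. CPM use the same factors, TPM the deposited lengths. GC content is that of the longest GENCODE M21 transcript, available for 99.9% of tested genes, and offsets used loess with span 0.5. Log2 CPM used a prior count of 2. DESeq2 1.42.0 and limma-voom (limma 3.58.1), both with Benjamini-Hochberg adjustment, were alternatives beside other scalings, filters and thresholds, the replicate block, covariates and leaving out each library. The fit was tested on simulated data. The members and lists were chosen with earlier results of these data known. Full statistics are given for members called or with 1 of the 2 smallest p in their role group, other values by range, and up to 4 genes per pathway list by p. Shank2, Dlg4 and Lrrtm2 are given more fully, chosen after their values were seen. The labels treat each pool as 1 sample, so p-values measure the spread between pools.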

Additional observations from a re-analysis of the deposited data

Results flagged for a closer look

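In groups of 4 libraries, 1 library lay far from the other 3 for 6 of 64 member and group combinations. For independent combinations chance would flag about 1 in 20, or 3.2. The members share the same libraries and many deviate together, so this comparison is not a test. Shank1 stood at 949 CPM in non-retrieval replicate 2 against 680 to 710 CPM in the others, and Dlgap2 at 91.3 CPM in the same library against 80.5 to 81.5 CPM. Retrieval replicate 1 was low for Dlgap3 (513 CPM against 691 to 726 CPM) and Begain (168 CPM against 241 to 251 CPM) and high for Nlgn1 (70.6 CPM against 58.1 to 58.6 CPM). Cacng2 stood at 97.9 CPM in non-retrieval replicate 1 against 103 to 104 CPM.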

How the results depend on the processing

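Against 766 called genes, 1 called member and 5 called pathway genes, the counts were as follows in the other settings that moved any of them by over 1.5 times. Limma-voom called 1619 genes, 5 members and 12 pathway genes. The length and GC offset gave 1372, 6 and 15, the myelin covariate 169, 1 pathway gene and 0 members, and an adjusted p under 0.01 gave 238, 0 and 2. An adjusted p under 0.1 gave 1173 genes and 2 members. RLE factors gave 2 members, DESeq2 2, no filter on low counts 3 (with Shank1 and Shank3), and upper-quartile factors 3 pathway genes. With both libraries numbered 1 left out, chosen after seeing the data, 6 members and 8 pathway genes were called. Leaving out 1 library at a time gave 330 to 1360 genes, 0 to 7 members and 2 to 15 pathway genes, and a median over the members of 0.024 to 0.112. That median was -0.01 with the myelin covariate. The other settings moved it by less than the spread between libraries, although it was -0.005 with the length and GC offset, where 16 of 32 members were positive.

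Same-numbered libraries are not said to be paired, and the number was not used as a pair in the main fit. Whether it marks a shared batch was not tested. Deviations of same-numbered libraries from the group means correlated by 0.027 to 0.221 over all tested genes, and each of the 8 libraries correlated best with its own number. Over the 32 members alone those correlations were higher, 0.393 to 0.924, although retrieval replicate 2 correlated best with non-retrieval replicate 4 there (0.546 against 0.393). The replicate block called 1791 genes (10.7% of those tested), 4 members and 19 pathway genes. Beside Synpo, the members called with the block were Shank1, Shank3 and Lrrtm1, with edgeR adjusted p of 0.00439, 0.00445 and 0.00617. The length and GC offset with the replicate block, chosen after seeing the data, called 1945 genes, 7 members and 21 pathway genes.

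Among the 32 members, 15 changed sign with the myelin covariate, 6 with the length and GC offset, 8 with that offset and the replicate block, 4 with upper-quartile factors, 1 with limma-voom and 0 with RLE factors, DESeq2 or the replicate block, and leaving out 1 library changed 1 to 5. Of the members that changed sign in any of these settings, 0 passed the test there. Among genes given above with their values, those that changed with the myelin covariate included Dlg3 (0.021), Dlgap3 (-0.062), Ppp1r9b (-0.015), Agap2 (-0.069) and Nrxn2 (-0.073). With the length and GC offset the 6 members were Dlg1 (-0.063), Dlg4 (-0.068), Dlgap4 (-0.011), Anks1b (-0.08), Begain (-0.023) and Cacng2 (-0.019), and Nrxn2 was -0.020. With that offset and the replicate block the same 6 were negative, Dlg2 was -0.001, Sipa1l1 -0.002 and Nrxn2 -0.018. Cacng3 ran from -0.081 to 0.018 on leaving out 1 library, with the positive value without non-retrieval replicate 4 or retrieval replicate 1. The cause was not tested. The members had at least 1164 counts in every library, and the part of depth was not tested.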

Other observations

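Within groups, some pairs of members deviated together from library to library and others in opposite directions. Over the 496 pairs of members, the Pearson r of their deviations from the group means over 8 libraries had a median of 0.21 and ran from -0.97 to 0.98, with 285 pairs positive, 210 negative and 1 at 0 after rounding, 77 above 0.8 and 27 below -0.8. The closest pairs were Dlgap3 with Agap2 (0.98) and Dlg4 with Agap2 (0.98), and the most opposed were Synpo with Nlgn3 (-0.97) and Nlgn3 with Cacng8 (-0.95). These pairs share libraries and differ or agree in GC content, and the values are a description with no test.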
